A study of Mus musculus with 22 samples.

Results

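The 8 genes described here are used as markers of the resident macrophages that lie along blood vessels in adipose and mammary tissue. They were taken by symbol: Cd163, Mrc1, Lyve1, Timd4, Folr2, Cd209f, F13a1 and Cbr2, from 52526 distinct symbols in the deposited values, of which 15138 were tested. All 8 passed the filter on low values, although Timd4 did so in 16 of 22 mice. RNA came from the left mammary gland number 4 of 22 female C57BL/6J mice aged 7 to 8 weeks, in which EO771 cells, a mammary cancer line of the same strain carrying luciferase, had been engrafted. All mice were housed for 2 weeks before engraftment, either with a running wheel or with only the hub of a wheel as control. Liposomes were injected intravenously 24 hours before and again at engraftment, and the tissue was taken 24 hours after engraftment. Liposomes held PBS in 6 control and 6 wheel-running mice, and clodronate in 5 control and 5 wheel-running mice. The tissue was whole, with no cells sorted, so each value mixes all cell types of the gland and the engrafted cells.

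Resident macrophages of fat and mammary tissue settle before or soon after birth and largely maintain themselves, whereas other tissue macrophages derive from blood monocytes. Those beside vessels take up material from blood and tissue fluid through a set of endocytic receptors, and are known for clearing debris, hyaluronan and haemoglobin. Clodronate liposomes are taken up by phagocytes and kill them from within, and how many cells of a tissue are reached depends on how well liposomes leave the blood. The comparison of clodronate with PBS liposomes therefore addresses how much of each gene's RNA was lost with the treatment, and the comparison of activities addresses whether running altered it.

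The genes fall into receptors and enzymes. Cd163 encodes the scavenger receptor for haemoglobin bound to haptoglobin, Mrc1 the mannose receptor, Lyve1 a receptor for hyaluronan that lymphatic vessels also carry, Timd4 a receptor for phosphatidylserine on dying cells, Folr2 a folate receptor and Cd209f a lectin of the DC-SIGN family. F13a1 encodes the catalytic subunit of coagulation factor XIII, which cross-links fibrin, and Cbr2 a carbonyl reductase. In GENCODE M21 (GRCm38), all 8 are protein-coding genes. Cd163 spans chr6:124304656-124330527 (plus strand), Mrc1 chr2:14229392-14332057 (plus), Lyve1 chr7:110850607-110863239 (minus) and Timd4 chr11:46810800-46844332 (plus). Folr2 spans chr7:101839988-101857194 (minus), Cd209f chr8:4102787-4105835 (minus), F13a1 chr13:36867178-37050244 (minus) and Cbr2 chr11:120729489-120732114 (minus).

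Promoter sequences are shown for Mrc1 and F13a1, the genes with the smallest p-values for clodronate and closely tied in level from mouse to mouse, as described further on. They are RefSeq sequences of GRCm38.p6, from 250 bases before to 50 bases after a transcription start, written 5′ to 3′ on the gene's strand. Capitals mark the core motif of PU.1, a transcription factor of myeloid cells, written GAGGAA or, on the other strand, TTCCTC. F13a1 has starts at 2 places in that table.
Mrc1 (chr2:14229164-14229463, plus strand): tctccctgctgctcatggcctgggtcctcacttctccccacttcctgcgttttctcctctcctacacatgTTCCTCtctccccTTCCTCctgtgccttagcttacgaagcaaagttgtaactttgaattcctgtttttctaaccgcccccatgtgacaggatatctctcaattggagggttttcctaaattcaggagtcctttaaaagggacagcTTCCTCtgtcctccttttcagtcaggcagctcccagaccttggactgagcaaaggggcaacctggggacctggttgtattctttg
F13a1 nearer the gene's 3′ end (chr13:37049164-37049463, minus strand): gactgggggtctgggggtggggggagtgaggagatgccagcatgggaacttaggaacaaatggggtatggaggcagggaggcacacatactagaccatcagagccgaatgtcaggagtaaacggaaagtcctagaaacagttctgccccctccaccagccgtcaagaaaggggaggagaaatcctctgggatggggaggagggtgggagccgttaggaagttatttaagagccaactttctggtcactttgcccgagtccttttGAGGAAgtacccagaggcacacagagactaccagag
F13a1 at the annotated 5′ end (chr13:37050195-37050494, minus strand): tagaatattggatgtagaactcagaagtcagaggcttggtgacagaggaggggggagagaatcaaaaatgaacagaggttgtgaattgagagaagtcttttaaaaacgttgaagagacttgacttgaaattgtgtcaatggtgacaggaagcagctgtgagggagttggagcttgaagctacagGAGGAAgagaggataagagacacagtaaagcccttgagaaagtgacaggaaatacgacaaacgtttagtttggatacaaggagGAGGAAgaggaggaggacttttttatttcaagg
The Mrc1 promoter held 3 copies and the F13a1 promoters held 1 and 2. The table has 9 promoters for 7 of the members, and 4 of the 9 held the motif (the fourth was that of Cbr2), against 28.3% of all 32851 promoters of that length. The motif of the MAF factors, TGCTGAC or GTCAGCA, which does not overlap the PU.1 core in these promoters, was found in 2 of the 9 (Timd4 and Cbr2) and in 4.67% of all promoters. These matches describe the letters only.

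Values were deposited in CPM, reads scaled to a common library total, with each value below 1 raised to 1 (the floor). Libraries held 13256467 to 20484578 reads (median 16293026), and the floor hides up to 13 to 20 reads of a gene, depending on the library, so lower levels were not detectable. QuantSeq reads 3′ ends, about 1 read for each transcript whatever its length, so CPM values of different genes can be set side by side. On that scale the mean of the 4 group means was 42.7 CPM for Cbr2, 39.2 for F13a1, 35.9 for Mrc1, 28.5 for Lyve1, 20.1 for Cd163, 16.5 for Cd209f, 12.4 for Folr2 and 4.92 for Timd4. Only the step from Folr2 to Timd4 (7.45 CPM) exceeded the SD over mice of both genes, a yardstick that does not compare genes within a mouse. Within mice, each gene was above the next in 13 to 19 of the 22. That count was 19 both for Mrc1 above Lyve1 and for Folr2 above Timd4. The members' summed level was 119 to 329 CPM with PBS liposomes in control mice (median 238), 119 to 308 CPM in wheel-running mice (median 228), 137 to 186 CPM with clodronate in control mice (median 166) and 122 to 241 CPM in wheel-running mice (median 177).

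Other cells of the gland varied between mice, and 5 mice stood apart. The mean of log2(CPM + 1) over 12 lymph node and lymphocyte genes was 4.18 in control PBS mouse 2, 4.66 in wheel PBS mouse 3, and 5.58, 5.71 and 4.99 in wheel clodronate mice 3, 4 and 5, but 1.00 to 1.28 in the other 17 mice. These 5 are called mice rich in lymph node genes below, a division made from the data. They also had more RNA of Cd5l, a gene of lymph node and splenic macrophages (2.55 to 22.4 CPM, against 1.00 to 2.16 CPM in the other mice). Siglec1, listed for the same macrophages, overlapped between the sets, at 2.31 to 5.83 CPM against 1.00 to 6.13 CPM. Together with Vcam1, the 3 genes summed to 55.0 to 112 CPM against 9.16 to 41.5 CPM. Lymphatic endothelium genes summed to 26.4 to 51.5 CPM in the 5 mice, against 18.7 to 42.0 CPM in the others. Adipocyte genes summed to 5583 to 19928 CPM and muscle genes to 25.6 to 18928 CPM over the 22 mice, so the makeup of the dissected tissue also differed.

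**Figure D1:**
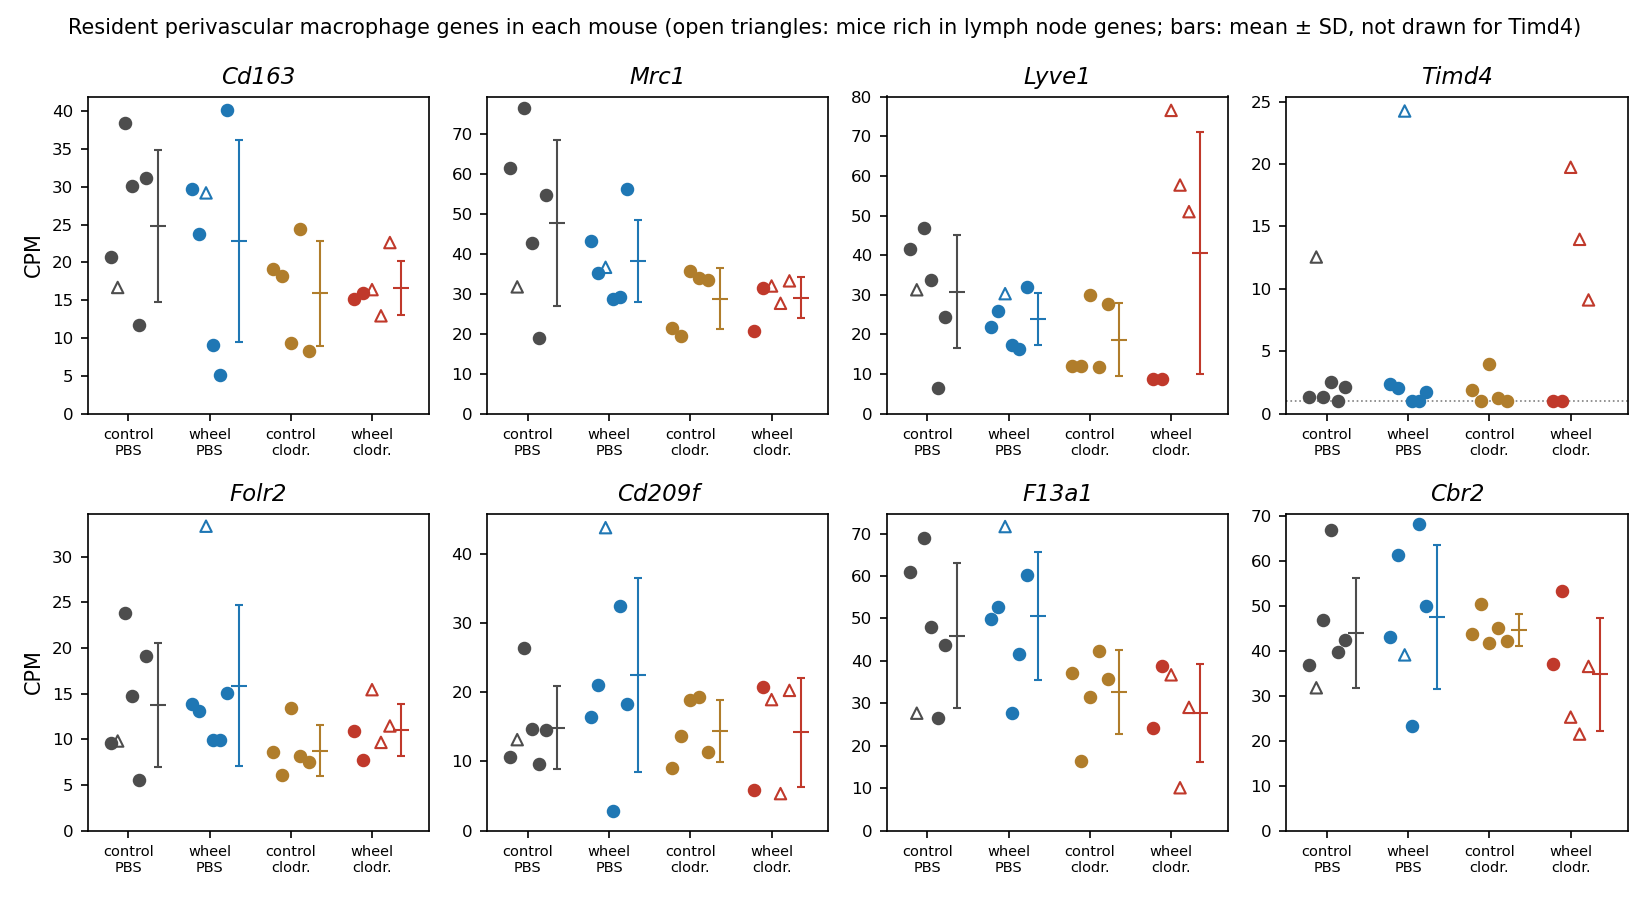
Each panel plots the CPM of a gene (linear axis from 0) in every mouse, by group, with the group's mean ± SD beside the points except for Timd4, and the dotted line in the Timd4 panel is the floor of 1 CPM. Open triangles are the 5 mice rich in lymph node genes, and they hold the 5 highest Timd4 values (9.11 to 24.3 CPM) and the 3 highest Lyve1 values (51.0 to 76.6 CPM).

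With clodronate liposomes, 7 of the 8 genes had a log2 change below 0 averaged over activity, and F13a1 and Mrc1 had the smallest p-values, but none of the 8 passed an adjusted p of 0.05 (limma, Benjamini-Hochberg over all genes tested). Among all 15138 genes, 31 (0.205%) passed, all lower. At an unadjusted p below 0.05, 2 of the 8 members were counted (F13a1 and Mrc1, both lower) and 1579 of all genes (10.4%), 1256 of them lower (8.3%). Changes below 0 made up 57.4% of all genes, and the median was -0.33 on the log2 scale over the members and -0.04 over all genes. A lower level in whole tissue cannot tell fewer cells of a type from less RNA in each cell. All changes below are on the scale of log2(CPM + 1), which understates those of low genes such as Timd4. The mice are separate animals by their labels. Each limma p-value sets a difference in group means against the spread between these mice, moderated by a trend over all genes.

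F13a1 had the largest difference. With PBS liposomes it ranged from 26.6 to 68.9 CPM in the 6 control mice (median 45.8) and from 27.6 to 71.7 CPM in the 6 wheel-running mice (median 51.2). With clodronate, the 5 control mice had 37.2, 16.5, 31.5, 42.3 and 35.7 CPM, and the 5 wheel-running mice had 24.1, 38.8, 36.7, 10.1 and 29.0 CPM. All 10 clodronate mice thus lay below the median of the PBS mice of the same activity, while the ranges of the groups overlapped. The share of all genes with that pattern was not measured, here or for the members below. The log2 change was -0.69 (SE 0.23, 95% interval -1.15 to -0.22, a level 1.61-fold lower), with limma adjusted p = 0.232. It was number 387 of all genes by p. F13a1 is also made by platelets and their precursors, of whose 4 marker genes Gp1ba was at the floor in all mice and Gp9 in all mice of 3 groups, and the only marker tested, Itga2b, had a log2 change of 0.21 (limma adjusted p = 0.823).

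Mrc1 ranked next. It ranged from 18.9 to 76.4 CPM in control PBS mice (median 48.7) and from 28.6 to 56.1 CPM in wheel PBS mice (median 35.9). The control clodronate mice had 21.4, 19.4, 35.7, 33.9 and 33.3 CPM and the wheel clodronate mice 20.5, 31.5, 31.9, 27.6 and 33.2 CPM. All 10 again lay below the PBS median of their activity, and the groups overlapped, the lowest PBS values being 18.9 CPM in control and 28.6 CPM in wheel-running mice. The log2 change was -0.49 (SE 0.19, 95% interval -0.89 to -0.10, 1.41-fold lower), with limma adjusted p = 0.343. It was number 763 by p.

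Cd163 and Folr2 had changes of about the same size with wider intervals. Cd163 ranged from 11.8 to 38.5 CPM in control PBS mice (median 25.5) and from 5.06 to 40.2 CPM in wheel PBS mice (median 26.5). With clodronate it was at 19.2, 18.2, 9.35, 24.5 and 8.30 CPM in control mice and between 12.9 and 22.6 CPM in the 5 wheel-running mice. All 10 values fell under the PBS medians, yet the lowest value of all, 5.06 CPM, was in a PBS mouse, and the log2 change was -0.40 (SE 0.29, limma adjusted p = 0.664). Folr2 ranged from 5.53 to 23.8 CPM and from 9.92 to 33.3 CPM in the control and wheel PBS mice, and from 6.03 to 13.5 CPM and from 7.68 to 15.4 CPM in the control and wheel clodronate mice. In each activity 4 of 5 clodronate mice were under the PBS median, with a log2 change of -0.45 (SE 0.23, limma adjusted p = 0.514). The last 400 bases of a Folr2 transcript matched Gm10602, a gene on the opposite strand over the same exons, at 100% identity. Gm10602 itself was at 1.00 to 2.07 CPM, and since the sources used here do not state whether counting used strand, reads of the pair cannot be told apart. Exons of F13a1 overlap Gm30489 on the opposite strand. The last 400 bases of F13a1 transcripts, however, had no match of at least 50 bases at 97% identity or more in another gene. The 3′ end of Cd163 had matches of at least 50 bases at 97% identity or more in 3 other genes (Gm45069, Rsu1 and Slc12a8), and that of Cbr2 matched Gm11771, which was at the floor in all mice, at 92.1% over 342 bases.

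Cd209f and Cbr2 had 95% intervals that held 0, as did Cd163, Folr2, Lyve1 and Timd4. Cd209f was at 9.68 to 26.4 CPM in control PBS mice and 2.89 to 43.9 CPM in wheel PBS mice, against 8.98 to 19.3 CPM and 5.34 to 20.7 CPM with clodronate, and its log2 change was -0.26 (SE 0.33, 95% interval -0.95 to 0.42). Its closest relative among transcripts, Cd209g, shared 84.3% of bases over 375 bases of the 3′ end. Cbr2 was at 31.7 to 66.8 CPM in control PBS mice, and its 5 control clodronate mice, at 43.7, 50.4, 41.7, 44.9 and 42.1 CPM, were all above that group's median of 41.0 CPM. In wheel PBS mice Cbr2 was at 23.4 to 68.2 CPM (median 46.5), and the wheel clodronate mice were at 37.0, 53.4, 25.2, 21.4 and 36.5 CPM, 4 of 5 under that median. Cbr2 averaged 30.8 CPM in the 5 mice rich in lymph node genes and 46.5 CPM in the other 17. The same 5 mice had lower medians of summed epithelium genes (360 CPM, against 766 CPM) and adipocyte genes (9753 CPM, against 12880 CPM), with overlapping ranges. The part of these cells in the level of Cbr2 was not tested. The log2 change of Cbr2 averaged over activity was -0.19 (SE 0.17, 95% interval -0.54 to 0.16). Both missed the threshold (limma adjusted p = 0.813 for Cd209f and 0.730 for Cbr2).

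Timd4 had its highest values in the 5 mice rich in lymph node genes, and Lyve1 had its highest in 3 of them. Lyve1 ranged from 6.51 to 47.0 CPM in control PBS mice (median 32.5) and from 16.3 to 31.9 CPM in wheel PBS mice (median 23.9). The control clodronate mice were at 12.0, 12.0, 29.9, 11.7 and 27.8 CPM. The wheel clodronate mice split, with 8.68 and 8.83 CPM in mice 1 and 2 and 76.6, 57.7 and 51.0 CPM in mice 3, 4 and 5, which are the 3 of that group rich in lymph node genes. Control PBS mouse 2 and wheel PBS mouse 3, also rich in these genes, had Lyve1 at 31.3 and 30.3 CPM. Both lay within the range of the other mice of their group. Averaged over activity the log2 change was -0.16 (SE 0.36, limma adjusted p = 0.910). Timd4 was at 12.5, 24.3, 19.7, 14.0 and 9.11 CPM in the 5 mice rich in lymph node genes and at 1.00 to 3.98 CPM in the other 17, of which 6 were at the floor. Its log2 change was 0.22 (SE 0.47, limma adjusted p = 0.901).

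**Figure D2:**
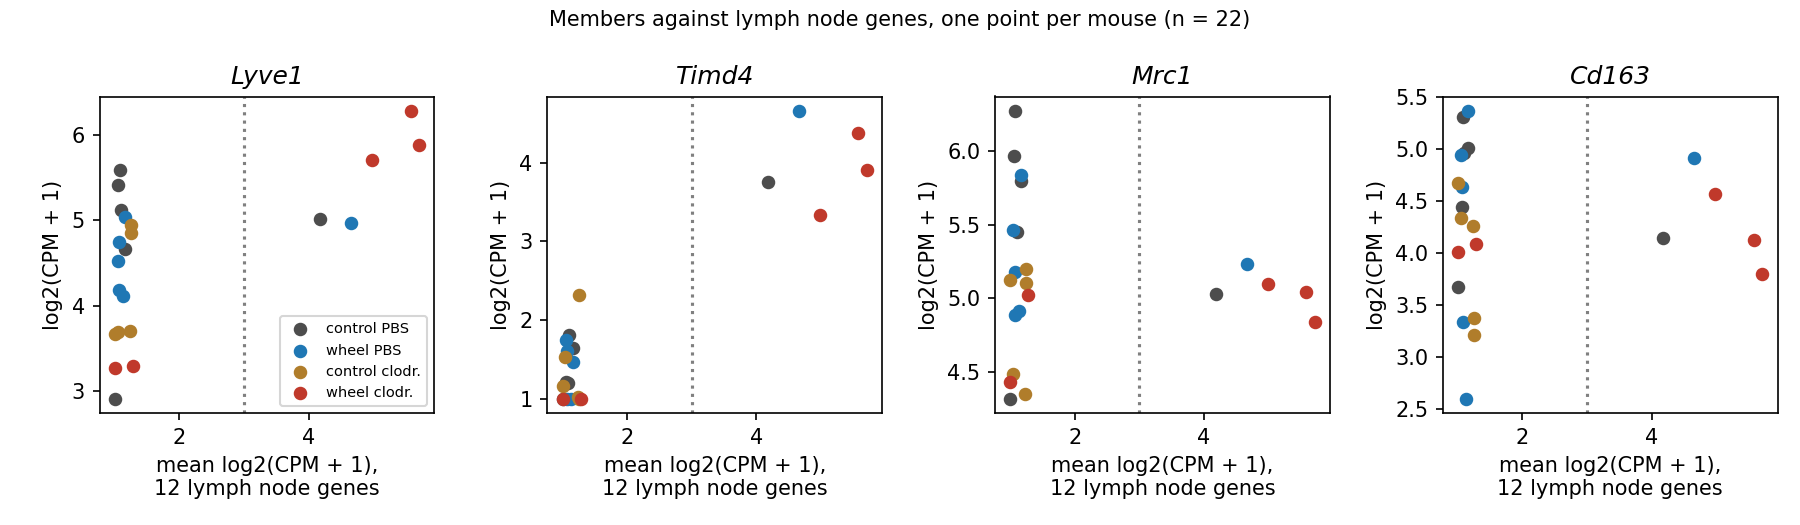
Each panel plots log2(CPM + 1) of a gene against the mean log2(CPM + 1) of 12 lymph node and lymphocyte genes, with 1 point per mouse coloured by group, and the dotted line at 3 divides the mice rich in these genes. The 5 mice on the right hold the highest Timd4 values, whereas their Mrc1 (27.6 to 36.6 CPM) and Cd163 (12.9 to 29.2 CPM) lie within the range of the 17 mice on the left.

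Without these 5 mice, a choice made after seeing the data, all 8 genes had changes below 0 between the 10 PBS and 7 clodronate mice, against 64.1% of the genes tested. The change of Lyve1 went to -0.90 (SE 0.35, 95% interval -1.63 to -0.17, 1.87-fold lower) and was the largest of the 8, followed by Mrc1 at -0.62 and F13a1 at -0.56. Timd4 went to -0.17. None passed after adjustment (lowest limma adjusted p = 0.306, for Lyve1), nor did any gene (0%) of the 14494 tested, of which 1845 (12.7%) had an unadjusted limma p below 0.05, 3 of them members (Lyve1, Mrc1 and F13a1). Since 3 of the 5 mice were in the wheel clodronate group, only 2 mice of that group were left.

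**Figure D3:**
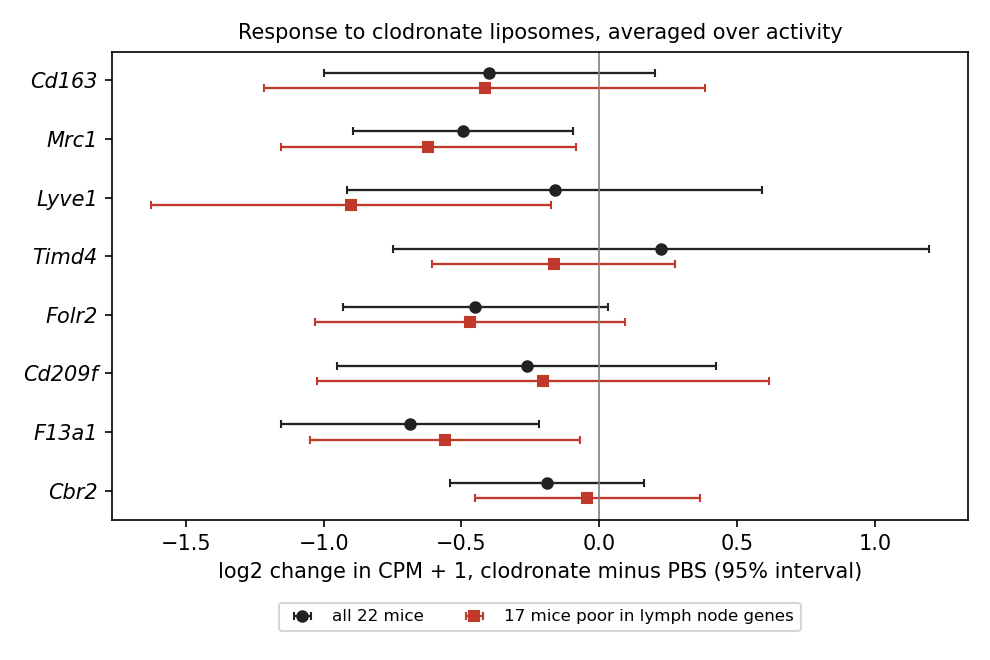
Points are log2 changes in CPM + 1, clodronate minus PBS averaged over activity, with 95% intervals from limma, for all 22 mice (black circles) and for the 17 mice poor in lymph node genes (red squares). Lyve1 goes from -0.16 to -0.90 and Timd4 from 0.22 to -0.17 between the sets of mice, and the intervals of F13a1 and Mrc1 lie below 0 in both.

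Within control mice, 0 of the 8 members and 0 of all genes passed (limma, 0%), and 1 member (Mrc1) and 1058 genes (6.99%) had an unadjusted p below 0.05. The members' log2 changes ran from -0.62 (Mrc1 and Cd163) to 0.05 (Cbr2), with a median of -0.48 against -0.10 over all genes, and Mrc1 had the lowest p (limma adjusted p = 0.670). Within wheel-running mice, 0 members and 1 gene of all (0.00661%) passed, and 1 member (F13a1) and 1759 genes (11.6%) had an unadjusted limma p below 0.05. The members' changes there ran from -0.91 for F13a1 (SE 0.32, limma adjusted p = 0.273) to 0.81 for Timd4, with Lyve1 at 0.29, Cbr2 at -0.43 and Cd209f at -0.51. Without the mice rich in lymph node genes, Lyve1 in wheel-running mice was at -1.23 (SE 0.55, limma adjusted p = 0.537), F13a1 at -0.54, Cd209f at -0.37, Timd4 at -0.36 and Cbr2 at -0.056. Whether the response differed between activities was tested by the interaction, and 0 members and 0 genes (0%) passed, with 0 members and 1147 genes (7.58%) at an unadjusted p below 0.05. The largest members' terms were 1.17 for Timd4 (SE 0.94) and 0.90 for Lyve1 (SE 0.73), and they became -0.40 and -0.67 without those mice.

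Running by itself left no member past the threshold. With PBS liposomes, 0 members and 0 genes (0%) passed, 0 members and 744 genes (4.91%) having an unadjusted limma p below 0.05, and the members' wheel minus control changes ran from -0.29 for Cd163 (SE 0.39, 95% interval -1.10 to 0.52) to 0.31 for Cd209f (SE 0.45, 95% interval -0.61 to 1.24). For Mrc1 the change was -0.22 (95% interval -0.76 to 0.32) and for F13a1 0.16 (95% interval -0.47 to 0.79). With clodronate, 0 members and 1 gene (0.00661%) passed, and 0 members and 1579 genes (10.4%) had an unadjusted limma p below 0.05. Changes ran from -0.42 for Cbr2 (SE 0.25) to 1.32 for Timd4 (SE 0.69, limma adjusted p = 0.543), and Lyve1 was at 0.71 (SE 0.54). With wheel clodronate mouse 1 or 2 left out, the mice of that group that were not rich in lymph node genes, 174 or 240 genes passed in place of 1, and still 0 members. Timd4, Lyve1 and Cbr2 went to -0.41, -0.89 and -0.00074 without the mice rich in lymph node genes, which within the clodronate groups were all wheel-running.

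The members' levels were also compared with each other from mouse to mouse. Over all 22 mice, after each group's mean was subtracted, 24 of the 28 pairs had a positive Pearson r, and the lowest was -0.43 (Timd4 and Cbr2). By permutation within groups, adjusted over the 28 pairs, 4 pairs passed by Pearson's r over the 22 mice. They were Mrc1 with Lyve1 and with F13a1, Lyve1 with Folr2, and Cd209f with F13a1. By Spearman's rho the lowest adjusted permutation p was 0.0504. Because the 5 mice rich in lymph node genes form a cluster of their own, the correlations were also tested within the other 17 mice in the same way. All 28 pairs had a positive Pearson r there, from 0.10 to 0.85 with a median of 0.38; the share of positive pairs among other genes was not measured. After Benjamini-Hochberg adjustment over the 28 pairs, 2 passed in these 17 mice by permutation within groups. Mrc1 and Lyve1 had r = 0.85 (permutation p = 0.00083, adjusted 0.0116) and Spearman's rho = 0.76 (permutation p = 0.00154, adjusted 0.0216). Mrc1 and F13a1 had r = 0.81 (permutation p = 0.00032, adjusted 0.00896) and rho = 0.79 (permutation p = 0.00131, adjusted 0.0216). Without the 2 mice farthest from the median of Mrc1, r was 0.68 for Lyve1 and 0.70 for F13a1. Cd209f and Cbr2 had r = 0.81, which was 0.53 without 2 mice and did not pass adjustment (permutation p = 0.0104, adjusted 0.0690). Both values of each point come from the same library and share its depth and tissue makeup.

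**Figure D4:**
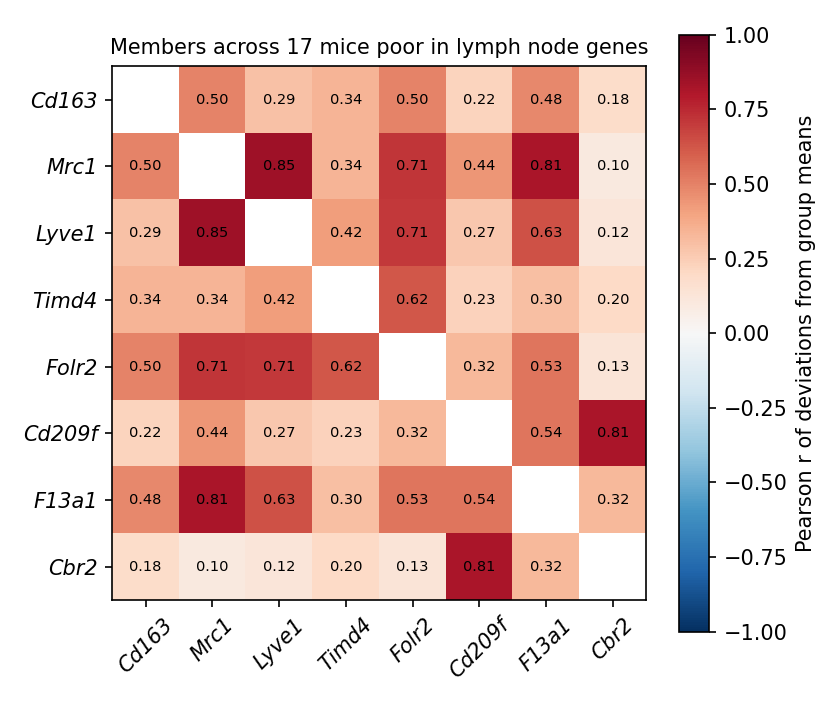
Each cell gives Pearson's r between a pair of genes over the 17 mice poor in lymph node genes, on log2(CPM + 1) after subtraction of group means, with red for positive values. Mrc1 has r of 0.71 to 0.85 with Lyve1, F13a1 and Folr2, and Cbr2 has r of 0.32 or less with every gene but Cd209f.

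Outside the 8, the genes most like them were sought among 10096 genes with a mean of at least 5 CPM, by Pearson's r over the 22 mice, group means subtracted, with the mean standardised level of the members. The closest were Fcna (r = 0.83), which encodes a ficolin of macrophages, Retnla (0.82), a secreted protein of alternatively activated macrophages, Abca9 (0.80), 1810030O07Rik (0.76) and Pla2g15 (0.75), a lysosomal phospholipase. In the 17 mice poor in lymph node genes, r was 0.88 for Fcna, 0.90 for Retnla, 0.76 for Abca9, 0.73 for 1810030O07Rik and 0.79 for Pla2g15. These 17 are among the 22 mice from which the genes were picked, so their r values do not test that choice.

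The wider set of resident macrophage genes showed the same absence of calls. Of 20 listed, 19 were tested, 0 passed in either direction for clodronate averaged over activity, 15 had changes below 0 and 5 had an unadjusted limma p below 0.05, all lower, with a median of -0.22. The largest were Ms4a7 (-0.81, SE 0.34, limma adjusted p = 0.391) and Pf4, a chemokine (-0.81, SE 0.24, limma adjusted p = 0.169). In wheel-running mice Mgl2, a lectin, was at -1.22 (SE 0.36, limma adjusted p = 0.207) and Pf4 at -1.21. Of 18 general macrophage and monocyte genes, 0 passed and 15 were below 0, with a median of -0.20, the largest being Fcgr1, an Fc receptor (-0.69, SE 0.38), and Lgmn, a lysosomal protease (-0.44, SE 0.32). The pan-macrophage genes Adgre1 (-0.28, SE 0.28) and Csf1r (-0.16, SE 0.20) had intervals that held 0, as did Fcgr1 and Lgmn. Of 7 recruited monocyte genes tested, 0 passed and 4 were below 0, among them Ccr2, the monocyte chemokine receptor (-0.78, SE 0.28, limma adjusted p = 0.279), and Vcan, a proteoglycan (-0.70, SE 0.36). Adipocyte genes were below 0 in 7 of 7 (0 passed, largest Lep at -0.61 and Plin1 at -0.56), and with their mean as a covariate F13a1 was at -0.49, Mrc1 at -0.40 and Cd163 at -0.13. Of 5 muscle genes, 0 were below 0, with a median of 1.52, and 0 passed or had an unadjusted limma p below 0.05. The part of fat content in the members' changes was not tested further, and that of muscle was not tested.

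Genes of macrophage growth factors and of the members' partners gave no calls either. Of 6 growth factor genes tested, 0 passed and 5 were below 0, with Csf2ra, a subunit of the GM-CSF receptor, at -0.53 (SE 0.23, limma adjusted p = 0.414) and Csf1, the main macrophage growth factor, at -0.25 (SE 0.22). Of 7 ligands and partners tested, which include haptoglobin, hyaluronan synthases and fibrinogen chains, 0 passed and 2 were below 0. The largest values were 0.40 for Hbb-bs, a haemoglobin chain, and 0.37 for Fgg, a fibrinogen chain.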

How the data were processed

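Labels gave the groups, and mice are named by their replicate numbers. Per the submitters' processing notes, the tool was STAR 2.5.3a and the build GRCm38, and counting is not given in the sources used here. The deposited signal is CPM per gene, which the authors raised to 1 where lower, and its total includes unmapped, multimapping and unassigned reads. Reads hidden by the floor cannot be recovered, so log2(CPM + 1) was tested, and 4 rows of unassigned reads were left out (genes held 57.2% to 64.5% of the reads). Using R 4.3.3, 4 group means were fitted by limma 3.58.1 with trended eBayes variances to genes that exceeded the floor in 5 or more mice (Benjamini-Hochberg adjustment, threshold 0.05), and the procedure was tested on simulated data. Permutations (100000) within groups gave correlation p-values (scipy 1.17.1). Copies of the last 400 bases were sought with BLAST 2.17.0. Members and gene lists were chosen with earlier results of these data known. All 8 members are named, and from other lists the 2 largest changes, or calls where there were any. Other genes were added after their values were seen (Adgre1, Csf1r, Cd5l, Siglec1, Vcam1, Fn1, and in wheel-running mice Pf4 and Spi1). Alternatives were other pseudocounts (0 and 5), filters, scalings, blocks, covariates and left-out mice.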

Additional observations from a re-analysis of the deposited data

Results flagged for a closer look

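In 32 groups (8 genes in 4 groups of mice), 4 had a mouse far from the rest by Dixon's 95% criterion, where chance gives about 1.6, and these were 3 different mice. Lyve1 was at 6.51 CPM in control PBS mouse 5, against 24.3 to 47.0 CPM in the other 5 mice. Timd4 was at 12.5 CPM in control PBS mouse 2, against 1.00 to 2.52 CPM, and at 24.3 CPM in wheel PBS mouse 3, against 1.00 to 2.37 CPM. Folr2 was at 33.3 CPM in wheel PBS mouse 3, against 9.92 to 15.0 CPM. Control PBS mouse 2 and wheel PBS mouse 3 are the mice of those groups that were rich in lymph node genes, and the part of lymph node tissue in these values was not tested.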

How the results depend on the processing

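No member passed in any comparison under 12 alternatives (3 of them chosen after seeing the data) or in 22 fits that each left out a mouse. The sign of a member's change turned in 28 of the 554 log2 changes computed under these alternatives. A count alternative on reads was not run, since the floor hides reads, and genes at the floor in every mouse cannot be tested. In low genes such as Timd4 the floor limits what can be seen.

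The number of genes passing with clodronate, 31, was 54 when genes averaging under 5 CPM were dropped, 14 with upper-quartile scaling, 15 with scaling to assigned reads, 20 without a variance trend, 11 with the replicate number as a block, 0 without the 5 mice rich in lymph node genes and 1 with adipocyte genes as a covariate. It was 12 to 146 when a mouse was left out, moving by over 1.5 times without control PBS mice 1, 3 or 4, wheel PBS mouse 6, control clodronate mice 1, 2 or 3, or wheel clodronate mice 2 or 3. The count went from 0 to 38 in control mice without control clodronate mouse 1, from 1 to 18 or 51 in wheel-running mice without wheel clodronate mouse 1 or 2, and from 1 to 174 or 240 for wheel against control with clodronate without the same mice. Upper-quartile scaling moved the share of genes below 0 from 57.4% to 45.5%, with 7 of 8 members still below 0. Replicate numbers are shared by different mice, whose deviations correlated at -0.08 to 0.18 on average and at -0.39 to 0.52 in single pairs. Mice of unlike number were not compared, so whether a number marks a shared cage or batch was not tested. The replicate block changed no member's call (0 of 8 passing, 3 at an unadjusted limma p below 0.05, averaged over activity).

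Signs changed as follows (log2 changes). For clodronate in control mice, Cd209f was at 0.091 with upper-quartile scaling, 0.0050 with scaling to assigned reads and 0.032 with lymph node genes as a covariate. Without the mice rich in lymph node genes, Timd4 was at -0.17 averaged over activity, 0.034 in control and -0.36 in wheel-running mice, Cbr2 at -0.030 in control and Lyve1 at -1.23 in wheel-running mice. In the same mice, wheel minus control was -0.0094 for Timd4, -0.086 for Folr2 and -0.072 for F13a1 with PBS, and -0.13 for Mrc1, -0.89 for Lyve1 and -0.41 for Timd4 with clodronate, and the interaction was -0.67 for Lyve1, -0.40 for Timd4 and 0.047 for F13a1. With lymph node genes as a covariate, clodronate changes were -0.38 for Timd4 averaged, -0.00791 for Cbr2 in control mice, and -0.51 for Lyve1 and -0.72 for Timd4 in wheel-running mice, wheel minus control with clodronate was -0.30 for Lyve1 and -0.62 for Timd4, and the interaction was -0.074 for Lyve1, -0.69 for Timd4 and -0.19 for Folr2. With adipocyte genes as a covariate, Timd4 was at -0.091 averaged and Cd163 at 0.25 in wheel-running mice. The cause was not tested.

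With a mouse left out, clodronate changes in control mice were -0.030 to 0.18 for Cbr2, -0.13 to 0.15 for Cd209f and -0.59 to 0.034 for Timd4, in wheel-running mice -0.52 to 0.033 for Cd163 and -0.058 to 0.69 for Lyve1, and averaged -0.35 to 0.041 for Lyve1. Wheel minus control with PBS was -0.049 to 0.25 for Cbr2, -0.50 to 0.049 for Cd163, -0.024 to 0.38 for Folr2 and -0.41 to 0.54 for Timd4, and with clodronate -0.042 to 0.32 for Cd163, -0.35 to 0.094 for Cd209f, -0.51 to 0.020 for F13a1 and -0.093 to 0.15 for Mrc1. The interaction for Folr2 was -0.072 to 0.34.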

Other observations

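In wheel-running mice with clodronate, 15 of 19 other resident macrophage genes had log2 changes below 0 (median -0.34). So did 10 of 18 general macrophage and monocyte genes (median -0.10) and 49.9% of all 15138 genes (median 0.0002), and 0 of either list passed. At an unadjusted limma p below 0.05, 2 of these resident genes were lower and 1 higher, and 1 general gene was higher (11.6% of all genes in either direction). Marco, a scavenger receptor of lymph node and splenic macrophages, was at 1.92 on the log2 scale (SE 0.92, limma adjusted p = 0.425) and Spi1, which encodes PU.1, at 0.87 (SE 0.33, limma adjusted p = 0.309), neither past the threshold. All 12 lymph node and lymphocyte genes had an unadjusted limma p below 0.05 and were higher there, with a median of 2.05, and 3 of the 5 wheel clodronate mice were rich in these genes. The adhesion protein Fn1 had the lowest p of the recruited monocyte genes, averaged over activity (log2 change -0.49, SE 0.12, limma adjusted p = 0.0836).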
